A study of Mus musculus with 2 samples.

Results

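Ptgfr, Akr1c18, Parm1, Cited4 and Oxtr, 5 genes tied to luteolysis or to the stages of the corpus luteum, were followed through single ovarian cells of 2 libraries. They were taken by name, and all 5 were listed in both libraries, among 29373 genes listed in either. The libraries came from ovaries of 8-week-old female ICR mice, an outbred strain. From the age of 3 weeks the mice were gavaged daily for 35 days, the control group (WT in its treatment label) with ddH2O and the PS-MP group with 100 nm polystyrene microplastics at 1 mg per 100 µL per mouse. Ovaries of different mice were pooled within a group, and the labels state n = 16 without saying whether this holds for each group or for both. They do not give the oestrous stage at collection. Cells cannot be assigned to mice, and each group is therefore 1 library. Differences between the libraries have no replicate check and no test, every interval is a 95% interval for counting error only, and the exposure, the animals and the preparation cannot be told apart.

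The corpus luteum forms from the cells of the follicle after ovulation, makes progesterone, and later regresses in a process called luteolysis. Prostaglandin F2alpha starts luteolysis through its receptor, which Ptgfr encodes. Akr1c18 encodes 20alpha-hydroxysteroid dehydrogenase, which turns progesterone into a form with little activity and is a classic marker of the regressing corpus luteum in rodents. Oxtr encodes the receptor for oxytocin. Cited4 encodes a transcriptional coregulator that binds CBP and p300. Parm1 encodes a mucin-like membrane protein first known from the prostate under androgen control. Cyp11a1, the enzyme that starts steroid synthesis from cholesterol, defined the cell sets here: a cell was called Cyp11a1-high when the gene made up at least 2000 CPM of its molecule counts (UMIs), where CPM is counts per 1000000 UMIs.

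After filtering, 14538 control cells and 14412 PS-MP cells remained, with medians of 9502.5 and 8643 UMIs per cell. Of these, 717 control cells (4.93%, exact interval 4.59 to 5.30) and 2497 PS-MP cells (17.3%, 16.7 to 18) were Cyp11a1-high. The cells were clustered without the 5 genes, so that none of the 5 entered the clustering. Most of the Cyp11a1-high cells lay in 3 clusters. The first, luteal-like by all 9 of its fixed markers and led by Akr1c18, Sfrp4 and Ptgfr, is called the Sfrp4 cluster, and it gave 227 control and 132 PS-MP cells above the threshold. The second, also luteal-like by all 9 markers but with none of them among its 10 leading genes, is called the Edn2 cluster after the gene that leads it. It gave 4 control and 1848 PS-MP cells, and a cluster that 1 library fills may be that library and not a cell type. The third, theca-like and led by Cyp17a1, gave 451 and 449 cells. The remaining 35 and 68 cells lay in other clusters. In CPM of the summed UMIs of a set, 9 of 9 luteal markers reached 20 CPM in each of these 3 sets, the theca-like one included. Of the macrophage markers, 0 of 7 reached 20 CPM in the Sfrp4 cluster, and of the endothelial markers 0 of 7. Of its stromal fibroblast markers 2 of 7 did, and of its granulosa markers 8 of 9, in each library. The granulosa markers summed to 1121 CPM in its control and 964 CPM in its PS-MP cells, against 6418 CPM in control cells below the threshold. In the Edn2 cluster 7 of 9 granulosa markers reached 20 CPM, with a sum of 1618 CPM. The theca markers summed to 145 CPM in control and 525 CPM in PS-MP cells of the Sfrp4 cluster, against 6455 CPM in the theca-like control cells. What part these levels have in the results was not tested.

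The upstream sequences of Ptgfr, Akr1c18 and Oxtr are shown because the results on single cells turn on these 3 genes. Each line gives the 250 bases before the gene's start on its own strand, 5′ to 3′, from RefSeq on GRCm38.p6, a different build from the GRCm39 that the submitters' processing notes name. Capitals mark the nuclear receptor half-site AGGTCA on either strand, the core recognised by receptors such as the steroidogenic factor family.
Ptgfr, chr3:151837529-151837778, minus strand: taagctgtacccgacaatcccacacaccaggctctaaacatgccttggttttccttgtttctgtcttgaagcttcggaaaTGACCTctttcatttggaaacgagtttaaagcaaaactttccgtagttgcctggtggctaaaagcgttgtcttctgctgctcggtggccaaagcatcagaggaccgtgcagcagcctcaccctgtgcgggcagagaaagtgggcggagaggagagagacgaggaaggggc
Akr1c18, chr13:4150647-4150896, minus strand: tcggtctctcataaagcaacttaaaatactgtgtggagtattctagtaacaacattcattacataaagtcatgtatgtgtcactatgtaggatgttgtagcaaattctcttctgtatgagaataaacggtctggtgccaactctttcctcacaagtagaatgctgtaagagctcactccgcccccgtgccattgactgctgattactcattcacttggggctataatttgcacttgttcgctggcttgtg
Oxtr, chr6:112489826-112490075, minus strand: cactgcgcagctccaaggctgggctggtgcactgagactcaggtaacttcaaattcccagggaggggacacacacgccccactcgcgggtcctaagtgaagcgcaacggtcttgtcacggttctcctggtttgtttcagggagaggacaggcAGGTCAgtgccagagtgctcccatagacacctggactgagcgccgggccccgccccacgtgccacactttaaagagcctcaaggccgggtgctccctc

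The half-site lay at position -170 of Ptgfr, counted from the start of the gene, where the reverse complement is printed, and at position -98 of Oxtr. No match lay in the 250 bases of Akr1c18, Parm1 or Cited4. Just past the start, outside the printed stretch, Ptgfr held a match at position 3 and Akr1c18 at position 28. For comparison, 14% of 32544 RefSeq promoter windows held this 6-base motif in their 250 upstream bases and 16.2% in the full window of 300 bases. Another 5 motifs were searched on both strands and had no match in the 300 bases of any of the 5 genes: the cAMP response half-site TGACG, the GATA core GATAA, the AP-1 site TGANTCA, the STAT5 site TTCNNNGAA and the C/EBP site TTGCNNAA. Their shares over all upstream windows were 17.8%, 22.5%, 6.73%, 7.04% and 9.58%. A match is a description of letters only.

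Across the whole libraries the levels of Ptgfr differed by less than the counting error, while the cells that carried it differed. Over all cells it measured 34.1 CPM (33.1 to 35.0) in the control and 34.0 CPM (33.0 to 35.0) in PS-MP cells. Akr1c18 measured 91.1 CPM (89.6 to 92.7) and 47.4 CPM (46.3 to 48.6). Oxtr stood at 10 CPM (9.50 to 10.5) and 25 CPM (24.2 to 25.9), Parm1 at 33.3 CPM (32.4 to 34.3) and 96.7 CPM (95.1 to 98.4), and Cited4 at 46.3 CPM (45.2 to 47.4) and 178 CPM (176 to 181). In the PS-MP library as a whole, Akr1c18 was thus lower and Oxtr, Parm1 and Cited4 were higher. No share over all genes was taken for the whole libraries, so these directions mark nothing particular to the 5 genes.

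The prostaglandin receptor and the progesterone-inactivating enzyme were held almost wholly by Cyp11a1-high cells. These cells carried 90.1% of all control and 95.2% of all PS-MP UMIs of Ptgfr, and 93.5% and 94.8% of all Akr1c18 UMIs, although they held 6.03% and 19.9% of all UMIs. The control Sfrp4 cluster alone, with 2.59% of the library's UMIs, held 85.8% of its Ptgfr and 92.0% of its Akr1c18. Parm1 was different: 91.7% of its control UMIs lay below the threshold, against 27.1% in the PS-MP library. Cited4 had 62.4% and 21.4% of its UMIs below the threshold, and Oxtr 25.9% and 9.64%.

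**Figure D1:**
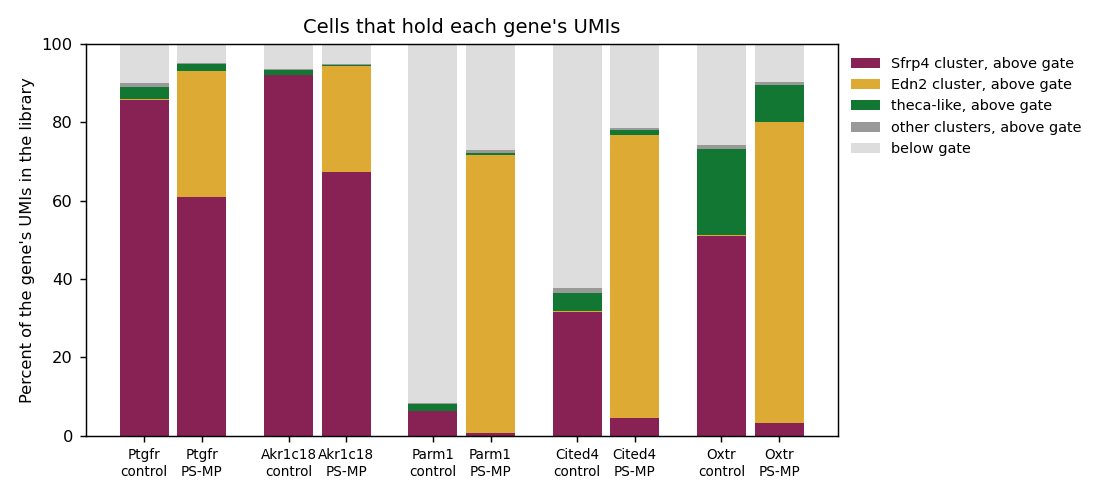
Percent of each gene's UMIs, per library, held by the 3 clusters and the other clusters above the Cyp11a1 threshold and by cells below it (stacked bars, 1 pair per gene). The Edn2 cluster above the threshold holds 71.0% of Parm1, 72.4% of Cited4 and 76.8% of Oxtr UMIs in the PS-MP library, and 32.1% of Ptgfr and 27.1% of Akr1c18.

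Above against below the threshold, Ptgfr was 142-fold higher (129 to 155) among control cells, at 509 against 3.59 CPM, and 80.8-fold higher (70.6 to 92.7) among PS-MP cells, at 163 against 2.02 CPM. Akr1c18 was 225-fold higher (210 to 240), at 1413 against 6.29 CPM, and 73.8-fold higher (66.2 to 82.5), at 226 against 3.07 CPM. For Oxtr the values were 123 against 2.76 CPM, or 44.6-fold (39.7 to 50.1), and 114 against 3.01 CPM, or 37.8-fold (33.8 to 42.4). Cited4 was 9.40-fold (8.95 to 9.86) and 14.8-fold (14.3 to 15.2) higher. Parm1 was 1.41-fold higher (1.28 to 1.56) among control cells and 10.8-fold higher (10.4 to 11.2) among PS-MP cells. Hence 4 of the 5 genes in the control library, and 5 of 5 under PS-MP, were at least 1.5-fold higher above the threshold. Parm1 in the control library passed 1.5-fold at a threshold of 4000 CPM (1.63), with at most 10% mitochondrial counts (2.21) and without the theca-like cluster (2.40), and was 1.09-fold (0.872 to 1.34) in cells thinned to 3500 UMIs. Its PS-MP ratio was 1.10 without the Edn2 cluster. Among all genes with at least 20 CPM in either set, 14% were so among control cells and 14.6% among PS-MP cells.

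Around the threshold most levels went up with Cyp11a1. Control cells with 1000 to 2000 CPM of Cyp11a1 had 37.1 CPM of Ptgfr and 25.5 CPM of Oxtr, and those with 2000 to 4000 CPM had 135 and 45.9 CPM. In the PS-MP library the same steps went from 20.5 to 50.5 CPM for Ptgfr, from 38.9 to 80.1 CPM for Oxtr and from 219 to 570 CPM for Cited4. Akr1c18 went from 146 to 816 CPM in control and from 41.6 to 153 CPM in PS-MP cells. Parm1 went the other way in control cells, from 26.1 CPM (19.0 to 34.9) to 15.3 CPM (9.89 to 22.6), with overlapping intervals, and from 87.7 to 217 CPM in PS-MP cells. The cluster mix changed over the same steps. Control cells of the Sfrp4 cluster went from 5 of 194 to 18 of 159, and PS-MP cells of the Edn2 cluster from 39 of 211 to 194 of 377. The 146 CPM of Akr1c18 came from 6.70% of the control cells in that step. The part of the mix in these levels was not tested.

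Below the threshold Ptgfr, Akr1c18 and Oxtr were sparse. Cell types presumed to lack them were used as a floor for shares of cells with a UMI. In stromal fibroblast-like cells, with medians of 8411 and 7489 UMIs, Akr1c18 UMIs were seen in 2.01% of control and 1.43% of PS-MP cells, Ptgfr in 1.12% and 0.910%, and Oxtr in 1.77% and 1.69%. Macrophage-like cells, with lower medians of 6841.5 and 5669 UMIs, had Akr1c18 in 5.11% and 1.98%. The share of all cells below the threshold with an Akr1c18 UMI, 3.36% and 1.61%, lay within that span. Cells with at least 5 Akr1c18 UMIs numbered 20 and 12 there. Of the Akr1c18 UMIs below the threshold, 249 of 902 in the control and 95 of 342 in the PS-MP library lay in the 3 clusters. How much of this level is background was not tested. The PS-MP over control ratio of Akr1c18 there was 0.487 (0.429 to 0.552). Outside the 3 clusters the share of cells with Ptgfr was highest in a granulosa-like cluster led by the aromatase gene Cyp19a1 and by Inhba, with UMIs in 10.9% of 1382 control cells and 4.45% of 988 PS-MP cells, at 16.2 CPM (14 to 18.6) and 6.16 CPM (4.54 to 8.16).

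Parm1 and Cited4 had further sites outside the steroid-making clusters. The smooth muscle or pericyte-like cells carried Parm1 at 192 CPM (166 to 220) in control and 227 CPM (191 to 268) in PS-MP cells, with UMIs in 52.4% of 145 cells and 54.3% of 92 cells. In a granulosa-like cluster led by Pcsk6 and Car4, Cited4 stood at 227 CPM (214 to 239) and 218 CPM (201 to 235) and Parm1 at 69.8 CPM (63.1 to 77.0) and 77.7 CPM (67.9 to 88.5). The same cluster had Oxtr UMIs in 1 of 669 control cells and 4 of 374 PS-MP cells. In both of these clusters the intervals of Parm1 overlapped between the libraries, as did those of Cited4 in the second. Over all cells below the threshold, Parm1 had a PS-MP over control ratio of 1.01 (0.964 to 1.05) and Oxtr of 1.09 (0.942 to 1.27), while Cited4 had 1.55 (1.49 to 1.62). Cited4 was thus the 1 gene of the 5 at least 1.5-fold higher below the threshold, where 0.119% of 7594 genes were; 1.15% were at least 1.5-fold lower. Ptgfr, Akr1c18 and Oxtr stayed under the 20 CPM minimum there. Of the Cited4 UMIs below the threshold, 34 of 4403 in the control and 409 of 5323 in the PS-MP library lay in the 3 clusters. Beside Cited4, Cyp11a1 itself measured 73.8 and 114 CPM below the threshold. Cited4 UMIs were seen in 1.77% of control and 5.53% of PS-MP stromal fibroblast-like cells. What part these have in the Cited4 value, which lies close to 1.5, was not tested.

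Above the threshold Ptgfr and Akr1c18 were highest in the Sfrp4 cluster, and Parm1 and Cited4 in the Edn2 cluster. In the Sfrp4 cluster Ptgfr stood at 1129.6 CPM (1097 to 1163) in 227 control cells and 1542 CPM (1486 to 1600) in 132 PS-MP cells. In the Edn2 cluster it stood at 72.8 CPM (69.2 to 76.6) in 1848 PS-MP cells, and in theca-like cells at 34.4 CPM (29.4 to 40.0) and 21.7 CPM (17.5 to 26.5). The order Sfrp4, Edn2, theca-like, below the threshold was therefore free of overlap between neighbouring intervals in the PS-MP library. Ptgfr UMIs were seen in 204 of 227 and 125 of 132 cells of the Sfrp4 cluster, in 35.3% of the Edn2 cluster, and in 8.20% and 4.23% of theca-like cells.

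Akr1c18 was also highest in the Sfrp4 cluster, before the Edn2 cluster, but in fewer cells. In the PS-MP library its intervals in theca-like cells (1.27 to 4.53 CPM) and below the threshold (2.75 to 3.41 CPM) overlapped. Its level in the Sfrp4 cluster was 3241 CPM (3185 to 3298) in control and 2373 CPM (2304 to 2444) in PS-MP cells, from 105 of 227 and 61 of 132 cells. The positive cells varied widely, with a median of 44 UMIs and a highest value of 949 in the control library, and 13 and 586 in the PS-MP library. The Edn2 cluster had 86.0 CPM (82.1 to 90.1), with UMIs in 22.4% of its cells and a median of 2 UMIs in those. Theca-like cells had 38.9 CPM in the control library, from 16 of 451 cells of which 1 held 63 UMIs, and 2.53 CPM in the PS-MP library, from 7 of 449 cells. These shares, 3.55% and 1.56%, lay within the span of the floor given above, while 6 control and 0 PS-MP cells held at least 5 Akr1c18 UMIs. Akr1c18 belongs to a family of related genes. How any reads shared between them were assigned is not given in the sources used here, so its level is uncertain to that extent.

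Parm1 and Cited4 had the opposite order of the luteal-like clusters. Parm1 stood at 459 CPM (450 to 469) in the Edn2 cluster, at 81.4 CPM (72.7 to 90.8) and 46.5 CPM (37.2 to 57.4) in the Sfrp4 cluster and at 18.1 and 17.1 CPM in theca-like cells. Cited4 stood at 863 CPM (850 to 876) in the Edn2 cluster, at 565 CPM (542 to 589) and 584 CPM (550 to 620) in the Sfrp4 cluster and at 66.8 and 69.8 CPM in theca-like cells. In the Edn2 cluster 95.5% of cells had a Parm1 UMI and 96.6% a Cited4 UMI. The 4 control cells that fell in this cluster held 6 Parm1 and 22 Cited4 UMIs in all, and 0 of Akr1c18.

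Oxtr was detected in all 3 clusters above the threshold. The Sfrp4 cluster had 197 CPM (184 to 211) in control and 60.4 CPM (49.8 to 72.6) in PS-MP cells. The Edn2 cluster had 128 CPM (124 to 133), and theca-like cells had 68.6 CPM (61.5 to 76.4) and 77.4 CPM (69.3 to 86.2). The control order was Sfrp4 cluster before theca-like cells, whereas under PS-MP the interval of the Sfrp4 cluster overlapped that of theca-like cells and both lay below the Edn2 cluster. Oxtr UMIs were seen in 41.5% and 44.5% of theca-like cells, far above the 1.77% and 1.69% of stromal fibroblast-like cells.

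**Figure D2:**
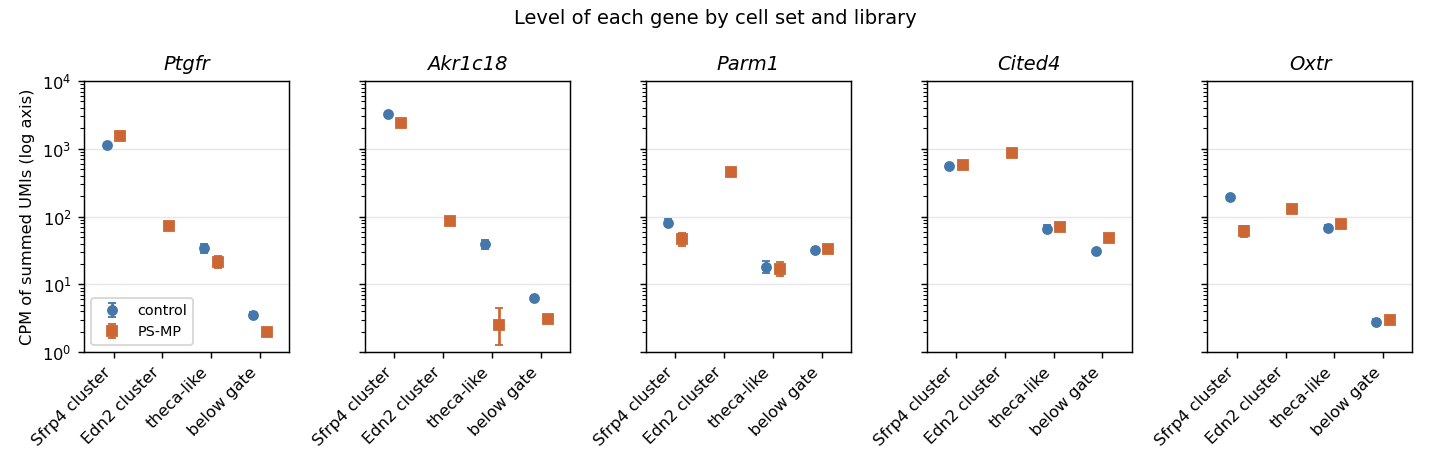
Level of each gene (CPM of summed UMIs, log axis) in 3 clusters above the Cyp11a1 threshold and in all cells below it, for the control (circles) and PS-MP (squares) libraries; bars are 95% Poisson intervals, and the Edn2 cluster has no control point because it held 4 control cells. Ptgfr and Akr1c18 are highest in the Sfrp4 cluster, at 1129.6 to 3241 CPM, and Parm1 and Cited4 in the Edn2 cluster, at 459 and 863 CPM.

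Set side by side in the PS-MP library, the Edn2 cluster carried 21.2-fold less Ptgfr (19.9 to 22.6) and 27.6-fold less Akr1c18 (26.1 to 29.2) than the Sfrp4 cluster, but 9.88-fold more Parm1 (8.00 to 12.3), 2.13-fold more Oxtr (1.76 to 2.59) and 1.48-fold more Cited4 (1.39 to 1.57). By the 1.5-fold measure 2 of the 5 genes were higher and 2 lower; of all 7416 genes compared, 20.1% were higher and 12.8% lower. Genes of ovulation and early luteinisation stood on the same side as Parm1, with 11 of 13 measured genes higher and 2 lower. Adamts1, a protease of the ovulating follicle, measured 1442 against 120 CPM, and Runx1, a transcription factor induced at ovulation, 324 against 59.3 CPM. Of the 14 measured genes of the luteal regression list, 0 were higher and 10 lower, led by Sfrp4 (86.6 against 2005 CPM). The 10 include 6 early response genes, Fos, Jun, Junb, Egr1, Nr4a1 and Atf3 (71.0 against 523 CPM), which are also known to respond to tissue handling. The median log2 ratio was -1.45 for that list, 0.97 for the ovulation list and 0.09 for all genes. Sfrp4 and Edn2, the genes that name the 2 clusters, are themselves in these 2 lists. The clusters were also made from variable genes of the same cells, so these counts are a description and no separate support. Among prostaglandin genes the cyclooxygenases stood out, Ptgs1 at 140 against 9.62 CPM and Ptgs2 at 30.9 against 1.60 CPM, with 4 of 14 genes higher and 1 lower. The progesterone list had 2 of 15 genes higher, Nr5a2 and Mgarp, and 5 lower, among them Star (308 against 2020 CPM), which carries cholesterol into the mitochondrion.

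Over all Cyp11a1-high cells, which lay in different clusters in the 2 libraries, Ptgfr and Akr1c18 were lower and Parm1 and Cited4 higher in the PS-MP library. Ptgfr stood at 509 CPM in control and 163 CPM in PS-MP cells (ratio 0.320, 0.307 to 0.333), and Akr1c18 had a ratio of 0.160 (0.155 to 0.165). Parm1 had a ratio of 7.71 (6.99 to 8.51), at 46.0 and 355 CPM, and Cited4 of 2.44 (2.34 to 2.54), at 289 and 705 CPM. Oxtr had a ratio of 0.926 (0.865 to 0.992), at 123 and 114 CPM. So 2 of the 5 genes were at least 1.5-fold higher and 2 lower, beside 10.1% and 9.67% of all 7418 genes. Without the Edn2 cluster the ratios were 0.855 (0.817 to 0.896) for Ptgfr, 0.460 (0.445 to 0.476) for Akr1c18, 0.789 (0.671 to 0.926) for Parm1, 0.778 (0.730 to 0.829) for Cited4 and 0.562 (0.504 to 0.626) for Oxtr. The direction of the pooled Parm1 and Cited4 ratios thus turned when the cluster of 1 library was left out. That pool still mixed clusters, with 227 Sfrp4-cluster and 451 theca-like cells in the control and 132 and 449 in the PS-MP library. Within these 2 clusters the ratios were 1.03 and 1.05 for Cited4, both with intervals that span 1. They were 0.571 and 0.941 for Parm1 and 1.37 and 0.629 for Ptgfr. The part of the mix in the pooled ratios was not tested.

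Pathway lists were compared in the same cells. Over all Cyp11a1-high cells the ovulation and early luteinisation list had 8 of 13 genes at least 1.5-fold higher in the PS-MP library and 0 lower, among them Edn2 (263 against 7.40 CPM) and Adamts1 (1131 against 112 CPM). The luteal regression list had 0 of 14 higher and 9 lower, among them Sfrp4 (217 against 909 CPM) and Fos (846 against 2529 CPM), and the same 6 early response genes are among the 9. For all genes 10.1% were higher and 9.67% lower. The median log2 ratios of the lists were 1.30 and -0.93, beside 0.01 for all genes. Within the Sfrp4 cluster the same medians were 0.24 and 0.40, with 4 of 12 ovulation genes and 2 of 14 regression genes higher and 0 lower, beside 5.02% and 5.83% of all genes. The remaining values of this paragraph are again over all Cyp11a1-high cells. There the progesterone list had 3 of 15 higher, led by Nr5a2 (954 against 229 CPM), and 4 lower, led by Star (531 against 1682 CPM). Of the oxytocin and prolactin list 0 of 8 were higher and 2 lower, Socs3 and Jak2, and of the prostaglandin list 4 of 14 were higher and 1, Ptges, lower. Among relatives of the members, Cited2 measured 1433 against 592 CPM and Akr1c14, another aldo-keto reductase, 66.8 against 112 CPM.

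**Figure D3:**
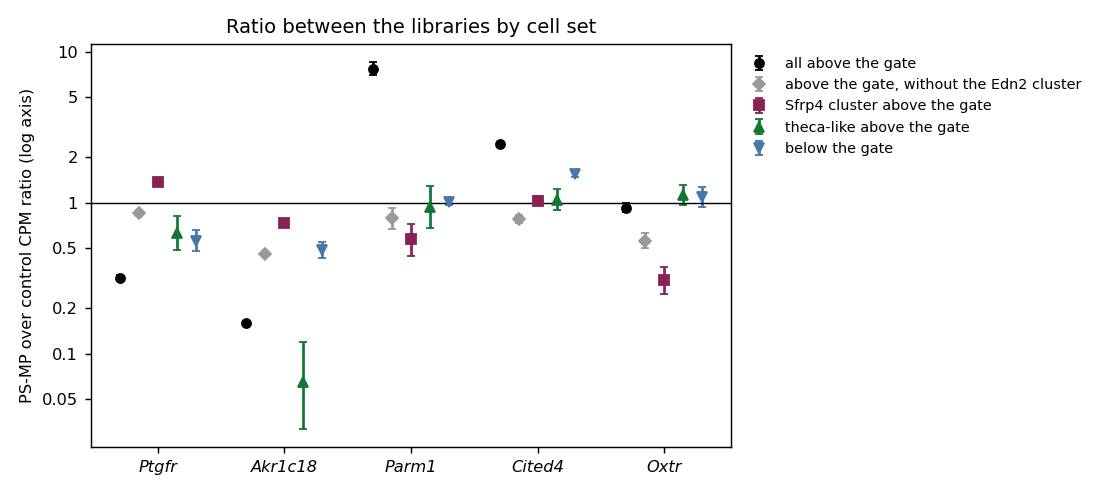
PS-MP over control CPM ratio of each gene (log axis, line at 1) in all Cyp11a1-high cells, in those cells without the Edn2 cluster, in the Sfrp4 cluster, in theca-like cells and in cells below the threshold, with 95% intervals for counting error. Parm1 moves from 7.71 to 0.789 and Cited4 from 2.44 to 0.778 when the Edn2 cluster is left out, and Oxtr is lowest in the Sfrp4 cluster at 0.306.

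Within the Sfrp4 cluster Oxtr was 3.27-fold lower in the PS-MP library (2.68 to 4.01), and Parm1 was 1.75-fold lower (1.38 to 2.24). Akr1c18 had a ratio of 0.732 (0.708 to 0.758) and Ptgfr of 1.37 (1.30 to 1.43), while Cited4 had 1.03 (0.960 to 1.11). Oxtr and Parm1 were the 2 members at least 1.5-fold lower, and 0 were higher, where 5.83% of 7054 genes were lower and 5.02% higher. The share of cells with an Oxtr UMI was 45.4% (38.8 to 52.1) and 37.9% (29.6 to 46.7). After each cell was thinned to 3500 UMIs, which removes the depth gap between medians of 15998 and 12690.5 UMIs, the shares were 29.1% and 18.2%. Cells with at least 5 Oxtr UMIs numbered 67 of 227 control and 4 of 132 PS-MP cells. Lhcgr, the receptor for luteinising hormone, measured 916 CPM in the PS-MP library and 1512 CPM in the control, and Nr5a2, a nuclear receptor that drives steroidogenic genes, 191 and 361 CPM. These were the 2 of 15 progesterone genes at least 1.5-fold lower, with 0 higher.

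In theca-like cells the libraries were close for 3 genes. The ratio was 1.13 (0.967 to 1.32) for Oxtr, 1.05 (0.891 to 1.23) for Cited4 and 0.941 (0.682 to 1.30) for Parm1, each with an interval that spans 1. Ptgfr had a ratio of 0.629 (0.484 to 0.815), and 7 control and 6 PS-MP cells held at least 5 of its UMIs. Akr1c18, at 0.0652 (0.0320 to 0.119), rested on few cells, as given above. These 2 were at least 1.5-fold lower and 0 members were higher, where 1.59% of 7032 genes were lower and 1.48% higher.

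In the control library Akr1c18 and Oxtr shared few single cells of the Sfrp4 cluster. Of the 105 control cells with an Akr1c18 UMI, 12 (11.4%, 6.05 to 19.1) had an Oxtr UMI, against 74.6% (65.9 to 82.0) of the cells without Akr1c18. In the PS-MP library 17 of 61 such cells (27.9%, 17.1 to 40.8) had one, against 46.5% (34.5 to 58.7). At 5 UMIs or more of each gene, 82 control cells held Akr1c18 and 67 held Oxtr, and 0 held both, which allows up to 3.66% of the former. In the PS-MP library 44 and 4 cells passed and 0 held both, a comparison that the 4 cells limit. Thinned to 3500 UMIs, 1 of 89 control Akr1c18 cells (1.12%) and 6 of 50 PS-MP cells (12%) had Oxtr, against 47.1% and 22.0% of the other cells. The intervals of cells with and without Akr1c18 were far apart in the control library and overlapped in the PS-MP library.

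**Figure D4:**
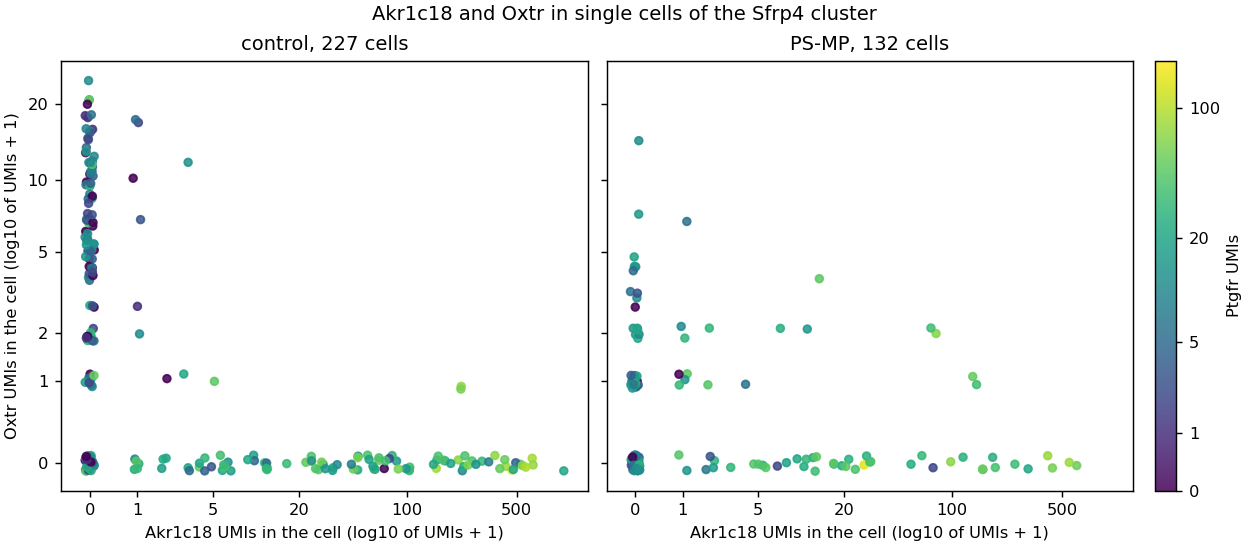
Akr1c18 and Oxtr UMIs in each cell of the Sfrp4 cluster above the Cyp11a1 threshold (both axes log10 of UMIs + 1; points shifted slightly at random to show overlaps), coloured by Ptgfr UMIs, for 227 control and 132 PS-MP cells. Control cells lie mostly along the axes, which is less clear for PS-MP cells. Both genes are held by 12 control and 17 PS-MP cells, and 0 cells hold at least 5 UMIs of each.

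Ptgfr was found in most cells of the Sfrp4 cluster with or without Akr1c18. Of the Akr1c18 cells in the Sfrp4 cluster, 102 of 105 in the control library and 60 of 61 in the PS-MP library had a Ptgfr UMI. Of the cells without Akr1c18, 83.6% (75.8 to 89.7) and 91.5% (82.5 to 96.8) had one, and the intervals overlapped in the PS-MP library only. Cited4 UMIs were found in 90.5% of control Akr1c18 cells and 91.8% of the other control cells, a difference within the counting intervals. Parm1 and Oxtr shared cells in the control library, where 68.6% (58.8 to 77.3) of Parm1 cells and 25.4% (18 to 34.1) of the others had an Oxtr UMI. In the PS-MP library these shares were 42.9% (27.7 to 59.0) and 35.6% (25.7 to 46.3). Across the 227 control cells, thinned to 1 depth, Spearman's rho was 0.55 for Ptgfr with Akr1c18, -0.48 for Akr1c18 with Oxtr, -0.44 for Ptgfr with Oxtr and 0.31 for Parm1 with Oxtr. Over the 132 PS-MP cells the same values were 0.46, -0.15, -0.17 and 0.11. The cells share a library and a cluster, so these are descriptions.

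In the Edn2 cluster the shares were close. Of its 414 Akr1c18 cells 60.9% had an Oxtr UMI, and of the rest 59.0%; in summed UMIs Oxtr was lower and Ptgfr higher with Akr1c18, by less than 1.5-fold. Parm1 and Cited4 occurred together in 1704 of 1848 cells. All 5 genes were detected in 124 cells of this cluster, in 8 control and 8 PS-MP cells of the Sfrp4 cluster and in 0 theca-like cells, while 40.8% of control and 37.4% of PS-MP theca-like cells had none of the 5. The values of rho between the 5 genes in the Edn2 cluster lay between -0.07 and 0.07.

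The Sfrp4 cluster was next divided by whether a cell kept an Akr1c18 UMI after thinning, which gave 89 cells with and 138 without in the control library and 50 and 82 in the PS-MP library. Median depth was similar, at 16346 and 15720.5 UMIs in the control and 13522 and 11377 UMIs in the PS-MP library. Akr1c18 itself is what the division used, and the other 4 genes were not. Ptgfr measured 2004 CPM with and 583 CPM without Akr1c18 among control cells (ratio 3.44, 3.23 to 3.67), and 2224 and 1036 CPM among PS-MP cells (ratio 2.15, 1.99 to 2.31). Oxtr measured 3.29 CPM with Akr1c18, from 5 UMIs in 89 cells, and 318 CPM without it, or 96.7-fold lower (41.3 to 299). In the PS-MP library it was 25.1 and 86.6 CPM, or 3.45-fold lower (2.11 to 5.91). At full depth the cells called without Akr1c18 still held 44 control and 25 PS-MP UMIs of it. Among these control cells were some with 1 Akr1c18 UMI and 16 or 17 Oxtr UMIs. The 96.7-fold therefore depends on the cutoff, which its counting interval does not cover. Parm1 was 3.09-fold lower with Akr1c18 (2.30 to 4.22), at 35.6 and 110 CPM, in the control library and 1.34-fold lower (0.850 to 2.15) in the PS-MP library, an interval that spans 1. Cited4 had ratios of 1.06 (0.971 to 1.15) and 1.29 (1.14 to 1.45). By the 1.5-fold measure 1 of the 4 genes was higher in each library, and 2 were lower in the control and 1 in the PS-MP library. Of all genes, 15.8% were higher and 19.2% lower in the control library, and 14.4% and 19.2% in the PS-MP library.

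Other genes of luteal function divided with Akr1c18 in both libraries. Lhcgr measured 77.1 CPM with and 2409 CPM without Akr1c18 in the control library, and 55.2 and 1555 CPM in the PS-MP library, 31.3-fold and 28.2-fold lower. Hsd17b7, a luteal enzyme that acts on oestrogen and in cholesterol synthesis, measured 169 and 1660 CPM, and 142 and 2330 CPM. Lower in both were also Nr5a2 (152 and 492 CPM, then 102 and 258 CPM) and Stat5a, a transducer of prolactin signals (30.3 and 74.6 CPM, then 36.4 and 114 CPM). Star lay the other way, at 3708 and 1865 CPM and at 3264 and 1096 CPM, as did Timp1, an inhibitor of matrix proteases, at 1718 and 223 CPM and at 1371 and 487 CPM. Cav1, a protein of membrane caveolae, measured 92.9 and 16.5 CPM, and 103 and 28.9 CPM. Cyp11a1 differed little, at 9125 and 10448 CPM in the control and 11924 and 10393 CPM in the PS-MP library. Tnfaip6 and Slco2a1, the prostaglandin transporter, were 14.9-fold and 10.3-fold higher with Akr1c18 in the control library; Slco2a1 was below 20 CPM in the PS-MP cells, and Tnfaip6 had a ratio of 1.59 there. Sfrp4, which gives the cluster its name, measured 3522 and 892 CPM in the control library but 1802 and 2156 CPM in the PS-MP library.

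By list, the progesterone genes were 3 higher and 8 lower of 15 in the control library and 3 higher and 6 lower in the PS-MP library, with median log2 ratios of -0.60 and -0.54. The luteal regression genes were 8 higher and 2 lower of 14, and 5 higher and 2 lower, with medians of 0.80 and 0.38. Hsd17b7 was lower in each, and 5 of the 8 higher genes in the control library were early response genes. The medians over all genes were -0.06 and -0.07, with 15.8% higher and 19.2% lower in the control library and 14.4% and 19.2% in the PS-MP library, and several of the counts that follow lie near these shares. The oxytocin and prolactin list had 4 higher and 3 lower of 8 in the control library and 1 higher and 1 lower in the PS-MP library. The prostaglandin list had 1 higher and 4 lower of 13, and 2 higher and 3 lower of 12. Of the 8 other aldo-keto reductases of the family, Akr1c14 and Akr1cl reached 20 CPM, and Akr1c14 was lower with Akr1c18 in both libraries, at 50.7 and 170.1 CPM and at 18.8 and 186 CPM.

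**Figure D5:**
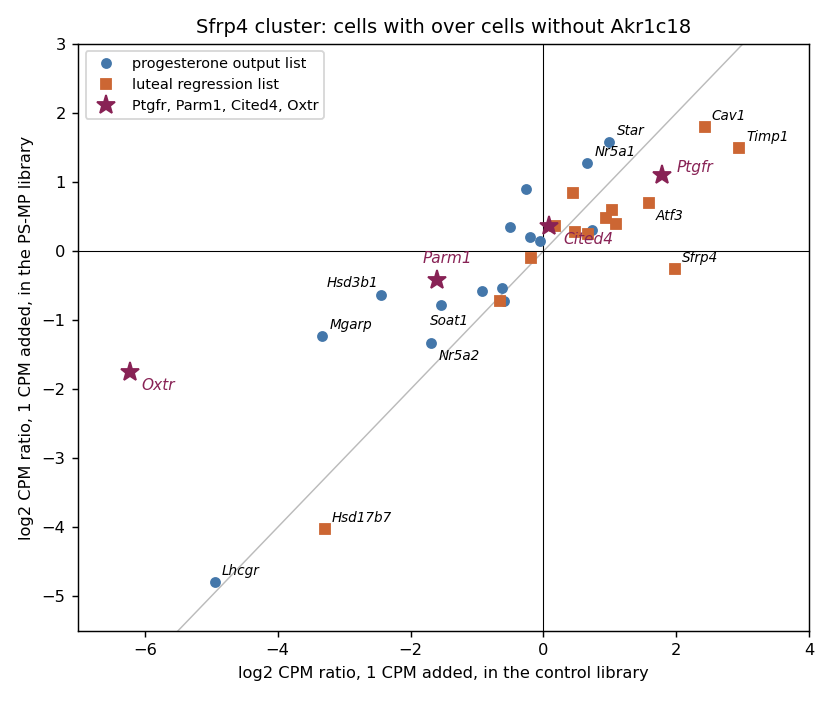
Log2 CPM ratio (1 CPM added) of cells with over cells without an Akr1c18 UMI in the Sfrp4 cluster, in the control library (x axis) and the PS-MP library (y axis), for the progesterone output list (circles), the luteal regression list (squares) and 4 members (stars); the grey diagonal marks equal values. Oxtr, Lhcgr and Hsd17b7 lie below 0 on both axes, Timp1, Cav1 and Ptgfr above 0 on both, and Sfrp4 on opposite sides.

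Taken over all Cyp11a1-high cells, the same division mixed clusters. With Akr1c18 were 104 control cells and 276 PS-MP cells, of which 217 belonged to the Edn2 cluster. Ptgfr was 8.61-fold higher (8.10 to 9.15) with Akr1c18 in the control and 5.54-fold higher (5.22 to 5.88) in the PS-MP library, Cited4 2.40-fold (2.21 to 2.60) and 1.29-fold (1.24 to 1.34). Oxtr was 14.6-fold lower (9.11 to 25.2) and 1.35-fold lower (1.20 to 1.52), and Parm1 1.44-fold lower (1.08 to 1.93) and 1.05-fold lower (0.987 to 1.11). So 2 of 4 members were at least 1.5-fold higher and 1 lower in the control library, beside 14.3% and 18.6% of all genes, and 1 was higher and 0 lower in the PS-MP library, beside 2.94% and 3.06%. Within the Edn2 cluster 0 of the 4 passed 1.5-fold, and 0.954% of genes were higher and 0.499% lower; Ptgfr had a ratio of 1.32 (1.15 to 1.51) and Oxtr of 0.798 (0.704 to 0.902).

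The genes most like each member in their levels over 32 cluster-by-library groups were found by Pearson's r of log2(CPM + 1) among 11518 genes. The groups share 2 libraries and were clustered on genes of the same cells, so r is a description. Oxtr was most like Fdx1, the electron donor of Cyp11a1 (r = 0.96), Cyp11a1 itself (0.94), Me1 (0.94), Lhcgr (0.93) and Prlr, the prolactin receptor (0.93). Ptgfr was most like Ccdc33 (0.94), Plch2 (0.93), Saa2, Megf10 and Plekhg4 (0.92 each), and Akr1c18 most like Far1 (0.94), Scp2, Olfr810 and Inpp5j (0.93 each) and Ccdc33 (0.91). Cited4 was closest to Pgpep1 (0.92), Nrn1 (0.88) and Chchd10 (0.87), and Parm1 to Slc4a3 (0.87), Atp1b2 (0.79) and Ltbp1 (0.78). Between the members r was 0.89 for Ptgfr and Akr1c18, 0.85 for Ptgfr and Oxtr and 0.68 for Akr1c18 and Oxtr. The last pair nevertheless shared few single cells of the Sfrp4 cluster in the control library. Parm1 had r between 0.23 and 0.58 with the other 4.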

How the data were processed

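The authors deposited raw UMI counts per gene and cell for 2 libraries from pooled ovaries; per the labels' protocols, cells were captured on BD Rhapsody beads and sequenced on an Illumina NovaSeq. The submitters' processing notes name GRCm39 and Seurat without a role; how reads were aligned and counted and how cells were called is not given in the sources used here. The libraries held 15373 cells with 160257194 UMIs (control) and 15056 cells with 145474989 UMIs (PS-MP). Cell barcodes present in both numbered 3. Cells with at least 500 genes and at most 25% mitochondrial counts were kept, and doublets called by scrublet in scanpy 1.11.5 (315 and 358) were left out. Genes absent from 1 file were set to 0.

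Cells were clustered jointly (2000 variable genes without the 5 members, 30 components, 15 neighbours, leidenalg 0.10.2, resolution 0.5, seed 1, no batch correction), which gave 19 clusters named from fixed marker lists, each "-like" since names were rebuilt here. Counts were summed per cell set as CPM with exact Poisson intervals, ratios with conditional binomial intervals and shares with Clopper-Pearson intervals, all at 95%; the ratio code was tested on simulated data. A gene entered a count with at least 20 CPM in either set and a ratio of at least 1.5. Shares and co-detection were repeated with each cell thinned to 3500 UMIs. List medians add 1 CPM.

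Members and lists were chosen with earlier results of these data known. Named genes are the members, up to 4 per list with the largest ratio between libraries or by Akr1c18 status, the 5 most like each member, markers, and, chosen after their values were seen, Hsd17b7, Cyp11a1, Stat5a, Atf3 and other repeats across libraries. The values within single clusters, the 5-UMI rule and the division within clusters were added after the data were seen. No paired analysis was possible because each group has 1 library.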

Additional observations from a re-analysis of the deposited data

Results flagged for a closer look

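Ptgfr differed between the libraries in opposite directions in different cells. The PS-MP over control ratio was 1.37 in the Sfrp4 cluster, 0.629 in theca-like Cyp11a1-high cells and 0.561 in cells below the Cyp11a1 threshold, with intervals that do not span 1. The levels below the threshold, 2.02 and 3.59 CPM, lie under the 20 CPM minimum, and in theca-like cells 7 control and 6 PS-MP cells held at least 5 Ptgfr UMIs. Each group is 1 library, and the difference between these ratios was not tested.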

How the results depend on the processing

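Values that moved are grouped by setting. With the Cyp11a1 threshold at 1000 CPM the PS-MP over control ratio in Cyp11a1-high cells was 0.355 for Ptgfr, 0.177 for Akr1c18, 2.75 for Cited4 and 1.02 for Oxtr, the last turning direction, and at 4000 CPM it was 0.306, 0.154, 2.20 and 0.853. At most 10% mitochondrial counts gave 0.290 for Ptgfr, 0.146 for Akr1c18, 6.85 for Parm1 and 0.739 for Oxtr, and all deposited cells gave 0.848 for Oxtr. Thinning to 3500 UMIs gave 0.360, 0.173, 9.95, 3.25 and 1.07 in the order Ptgfr, Akr1c18, Parm1, Cited4, Oxtr. The mean of per-cell CPM gave 0.345 for Ptgfr, 9.88 for Parm1, 3.23 for Cited4 and 1.04 for Oxtr. Leaving out the theca-like cluster gave 0.180, 0.0896, 5.35, 1.51 and 0.651, and leaving out clusters with over 90% of cells from 1 library gave 0.855, 0.460, 0.789, 0.778 and 0.562, so that Parm1 and Cited4 turned direction. Oxtr thus ranged from 0.562 to 1.07 and turned with the threshold, thinning and weighting. The cause was not tested.

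Above over below the threshold, ratios moved by over 1.5 times as follows. At 4000 CPM Akr1c18 was 99.9 (control) and 30 (PS-MP), Ptgfr 50.3 (PS-MP) and Oxtr 21.6 (PS-MP). At most 10% mitochondrial counts gave Akr1c18 47.1 (PS-MP), Cited4 21.4 and 24.0, and Parm1 2.21 (control). Without the theca-like cluster the control ratios were 293 for Ptgfr, 475 for Akr1c18, 17.7 for Cited4, 67.2 for Oxtr and 2.40 for Parm1. Without the 1-library cluster the PS-MP ratios were 217 for Ptgfr, 213 for Akr1c18, 4.69 for Cited4, 23.0 for Oxtr and 1.10 for Parm1.

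Counts of genes past 1.5-fold between the libraries above the threshold (750 higher, 717 lower) were 155 and 141 without the 1-library cluster, 433 and 377 at 50 CPM, 2691 and 5235 with no CPM minimum and 333 and 323 at 2-fold. Below it (9 and 87) they were 3 and 29, 1793 and 3686, and 0 and 37 under the last 3 settings, and 19 higher at a 4000 CPM threshold. Above over below the threshold, the control counts (1136 and 1884) were 736 and 984, 4743 and 5828, and 646 and 1120, and the PS-MP counts (1162 and 1689) were 754 and 859, 4641 and 6988, and 644 and 990. The 30 levels compared in the Sfrp4 and Edn2 clusters at resolutions 0.3 and 0.8 moved by less than their intervals. The theca-like cluster was less stable. At resolution 0.3 a cluster of 537 control cells, named luteal-like, stood in place of its 804 control cells. Over all cells of these clusters, control Akr1c18 was 49.2 CPM (43.7 to 55.3) at 0.3 and 34.0 CPM (30.2 to 38.1) at 0.5. Control Ptgfr was 29.8 CPM (25.5 to 34.6) and 21.5 CPM (18.5 to 24.8). Levels of few UMIs are limited by depth.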
